A study of Mus musculus with 2 samples.

Results

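The promoter peaks shared by both libraries of fetal mouse lung were the accessible chromatin peaks on chromosomes 1 to 19 that met a pair of conditions. They overlapped a peak of the other library by 1 bp or more, and they overlapped the span of start sites of a gene in the RNA table widened by 1 kb on each side. The rule took 27247 of 134977 PBS peaks (20.2%) and 27244 of 120379 OVA peaks (22.6%). Overlapping peaks of both libraries were joined into 27217 promoter regions, out of 99716 shared regions (27.3%). They touched 18337 of 30364 autosomal genes (60.4%).

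Both libraries came from C57BL/6J wild-type fetuses on gestation day 18, and RNA and accessible chromatin were read in the same nuclei. The PBS mother received alum with PBS before pregnancy and PBS into the nose from gestation day 4 to 17. The OVA mother received 100 µg of ovalbumin (OVA) with alum at each of a pair of sensitizations before pregnancy. Repeated doses of 500 µg of OVA each followed into the nose over the same days. Lungs of 9 PBS fetuses and 8 OVA fetuses, of 1 dam each, were pooled into 1 library per group, so that no comparison between the groups has a replicate and no test of it was possible. Group 2 innate lymphoid cells (ILC2s, sorted as CD45+, Lin- and ST2+), other CD45+ cells and EpCAM+ cells had been sorted and mixed.

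A promoter is the stretch of DNA around the start of a gene where transcription factors and RNA polymerase assemble, and it is read by the transposase when it is free of packed nucleosomes. Many promoters of genes used in every cell lie in CpG islands, stretches rich in CG dinucleotides that are accessible in most tissues, while promoters of tissue-specific genes more often lack an island and open with the lineage. ILC2s depend on the transcription factor GATA3 and make the type 2 cytokines interleukin (IL)-5 and IL-13. Macrophages, alveolar epithelial cells and fibroblasts of the late fetal lung each use their own factors and effector genes.

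The label "promoter" held for most members, but not for all. Of the 27217 regions 16139 (59.3%) held an annotated transcript start, 20061 (73.7%) lay within 1 kb of one, and 7156 (26.3%) lay further away. The rows of the RNA table give the span from the first to the last start of a gene, which was longer than 1 bp for 39.6% of autosomal genes and longer than 10 kb for 2122 of them, and peaks anywhere in that span are members. Most genes had a single region (13930), 4407 had more, 325 had 10 or more, and Fgfr2, a fibroblast growth factor receptor, had 158. A total of 12.4% of the regions touched more than 1 gene. Among the other 72499 shared regions 3.74% held a start.

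Nuclei were assigned to 4 main gates by fixed marker genes in their RNA, and the gates in the following are ILC2 (293 PBS and 482 OVA nuclei), Macrophage (223 and 397), Alveolar epithelium (685 and 604) and Stroma (1140 and 1565). Each gate held all 12 of its own markers, at a summed 4591 to 25881 CPM (counts of unique molecular identifiers, UMIs, per 1000000 of nuclear genes), against 76.2 to 990.4 CPM in the other gates. Stroma nuclei made up 26.6% of the kept PBS nuclei and 31.3% of the kept OVA nuclei, although the sort named no stromal cell. In the ILC2 gate the markers of mast cells and basophils, a list that includes Kit, summed to 1723 CPM (PBS) and 2725 CPM (OVA). The PBS nuclei were shallower, with a median of 1115 UMIs against 1821, and the libraries shared 54 cell barcodes. The 4 gates held 1057106 to 5915592 fragments each, so that values of ILC2 and Macrophage nuclei are the least precise.

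The sequences at the start of 7 genes show what the regions look like. For each main gate the restricted promoter with the largest ratio over the next gate (in the lower of both libraries) among those in the RefSeq table is given, then the housekeeping gene Eef1a1, and then Gata3 and Homer1, on which later comparisons turn. Each is the RefSeq window from 250 bases before to 50 bases after the start (build GRCm38.p6, the same assembly as mm10), 5′ to 3′ on the strand of the gene. Capitals mark matches to the motifs spelled out further below. In Ccr8 they mark GATA and NFY, in E030025P04Rik C/EBP, FOX and RUNX, in Eef1a1 SP/KLF and NRF1, in Gata3 SP/KLF, and in Homer1 ETS. The windows of Ccl6 and Cldn18 held none of the 16 motifs.
Ccr8 (ILC2, chr9:120091883-120092182, plus strand): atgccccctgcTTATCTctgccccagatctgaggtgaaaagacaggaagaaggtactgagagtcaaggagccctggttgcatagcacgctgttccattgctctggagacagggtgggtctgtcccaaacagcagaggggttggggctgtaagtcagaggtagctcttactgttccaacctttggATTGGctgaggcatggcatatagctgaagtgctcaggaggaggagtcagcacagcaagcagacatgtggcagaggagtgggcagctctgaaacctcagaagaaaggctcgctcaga
Ccl6 (Macrophage, chr11:83593038-83593337, minus strand): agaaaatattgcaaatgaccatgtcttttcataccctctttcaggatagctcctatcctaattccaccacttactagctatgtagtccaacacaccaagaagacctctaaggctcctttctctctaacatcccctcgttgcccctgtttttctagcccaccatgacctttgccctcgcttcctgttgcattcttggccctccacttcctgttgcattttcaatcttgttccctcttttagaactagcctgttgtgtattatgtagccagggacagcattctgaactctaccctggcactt
Cldn18 (Alveolar epithelium, chr9:99710014-99710313, minus strand): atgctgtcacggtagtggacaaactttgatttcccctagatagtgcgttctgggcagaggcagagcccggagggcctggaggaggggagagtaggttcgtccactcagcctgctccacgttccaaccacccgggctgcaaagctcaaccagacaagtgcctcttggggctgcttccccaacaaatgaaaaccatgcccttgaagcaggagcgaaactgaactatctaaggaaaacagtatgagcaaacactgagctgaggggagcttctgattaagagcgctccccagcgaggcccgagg
E030025P04Rik (Stroma, chr11:109144320-109144619, minus strand): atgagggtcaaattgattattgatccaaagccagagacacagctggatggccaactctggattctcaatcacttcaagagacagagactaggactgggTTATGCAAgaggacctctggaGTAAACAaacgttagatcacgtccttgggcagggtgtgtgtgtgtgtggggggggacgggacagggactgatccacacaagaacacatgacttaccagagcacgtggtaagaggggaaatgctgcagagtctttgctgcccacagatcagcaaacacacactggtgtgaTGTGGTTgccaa
Eef1a1 (not restricted, chr9:78481675-78481974, minus strand): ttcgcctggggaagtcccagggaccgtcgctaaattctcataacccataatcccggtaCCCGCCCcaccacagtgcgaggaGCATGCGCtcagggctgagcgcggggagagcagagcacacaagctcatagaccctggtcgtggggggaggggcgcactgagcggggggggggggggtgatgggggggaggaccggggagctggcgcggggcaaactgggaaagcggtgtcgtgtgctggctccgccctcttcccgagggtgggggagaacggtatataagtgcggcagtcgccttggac
Gata3 (in a region restricted to ILC2, chr2:9878551-9878850, minus strand): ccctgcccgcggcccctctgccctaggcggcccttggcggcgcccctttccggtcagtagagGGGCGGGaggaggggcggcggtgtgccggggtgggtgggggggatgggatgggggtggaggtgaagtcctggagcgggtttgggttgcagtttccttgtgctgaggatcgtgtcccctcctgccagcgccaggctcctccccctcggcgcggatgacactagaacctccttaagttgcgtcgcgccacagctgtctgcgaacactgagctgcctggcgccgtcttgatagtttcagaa
Homer1 (not restricted, chr13:93303507-93303806, plus strand): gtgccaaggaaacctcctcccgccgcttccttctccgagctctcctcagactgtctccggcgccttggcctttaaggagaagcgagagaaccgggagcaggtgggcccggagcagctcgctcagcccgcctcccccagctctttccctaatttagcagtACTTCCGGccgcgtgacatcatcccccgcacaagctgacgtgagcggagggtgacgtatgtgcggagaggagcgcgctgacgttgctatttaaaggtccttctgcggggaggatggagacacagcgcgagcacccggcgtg

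The promoter regions held more than their share of the signal. They were 27.3% of the shared regions and their peaks took 58.1% of the PBS fragments in all peaks (95% exact binomial interval 58.1 to 58.2%) and 58.4% of the OVA fragments (58.4 to 58.4%). Per kb of called peak they held 452 (PBS) and 533 (OVA) fragments, against 101 and 126 in the other shared regions, at similar median lengths of 889 bp and 895 to 897 bp. Within the gates, promoter regions took 65.1% and 63.5% of the fragments in shared regions in ILC2 nuclei (PBS and OVA), 57.1% and 55.8% in Macrophage nuclei, 63.6% and 64% in Alveolar epithelium and 64.4% and 63.4% in Stroma. The Macrophage share was the lowest of the gates in both libraries. Apart from those of medians across regions, all intervals given here and below cover counting error only. None covers the difference between fetuses or dams.

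Most promoter regions were not restricted to a single gate. Accessibility of a region is given as FPM, its fragments per 1000000 fragments in shared regions of the same gate. A region was called restricted to a gate when this value exceeded the next highest gate 2-fold or more, with a counting interval that left out equality, in each library alone and for the same gate. Of 23891 promoter regions with at least 20 fragments in each library, 4911 (20.6%) were restricted, against 41.2% of 50837 other shared regions and 34.6% of all shared regions. By gate the promoter regions were restricted to ILC2 in 676 cases (2.83%, against 4.37% of all shared regions), to Macrophage in 1385 (5.8%, against 10.3%), to Alveolar epithelium in 1464 (6.13%, against 9.57%) and to Stroma in 1386 (5.8%, against 10.3%). A region that was not restricted can still be low in some gates. The remaining 3326 promoter regions were too shallow to be tested.

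The difference from other shared regions depended on depth. Depth is the sum of fragments over the same 4 gates, so a region open in a single gate tends to be shallow by construction. The fall of the restricted share with depth is thus in part set in advance. Among regions with 20 to under 50 fragments in the shallower library, 39.2% of promoter regions and 41.4% of the other regions were restricted. At 100 to under 200 fragments the shares were 19.1% and 35.1%, and at 200 to under 400 fragments they were 3.91% and 14.6%. Among the 5484 promoter regions with 400 or more fragments only 4 (0.0729%) were restricted, and 2693 (49.1%) differed by less than 1.5-fold over all 4 gates in both libraries. Of the 288 other regions at that depth 2.08% were restricted and 24.7% were that even.

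Members far from an annotated start were restricted more often than members at one. At 100 to under 200 fragments 15.6% of the promoter regions that held a start were restricted, and 41.9% of those more than 1 kb from one. At 50 to under 100 fragments the shares were 29.2% and 50.9%. The share of restricted regions was lower at starts in each depth band that held both kinds.

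**Figure D1:**
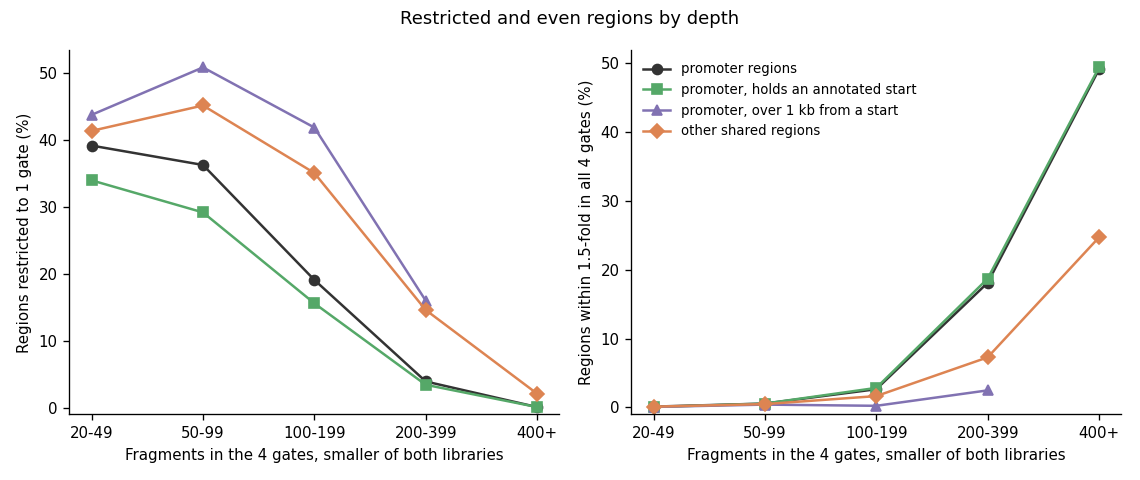
Share of regions restricted to 1 gate (left) and share of regions that differed by less than 1.5-fold over the 4 gates in both libraries (right), by the fragments in the 4 gates of the shallower library. Black circles are all promoter regions and green squares those that hold an annotated start. Purple triangles are those more than 1 kb from one, and orange diamonds are the other shared regions. At 400 or more fragments 0.0729% of promoter regions were restricted and 49.1% were even. Depth sums the same 4 gates, so regions open in a single gate tend to be shallow by construction.

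A pair of the 5 leading ILC2 promoters were those of surface receptors. Ccr8, a chemokine receptor of type 2 lymphocytes, had 74.7 FPM in ILC2 nuclei of the PBS library and 59.5 in those of the OVA library. In the other gates it had 0.874 to 2.11 (PBS) and 0.819 to 1.52 (OVA), a ratio over the next gate of 35.3 (17.1 to 84.7) and 39.2 (13.1 to 193). Its RNA was sparse, with 7 (PBS) and 29 (OVA) UMIs in ILC2 nuclei. Il2ra, the alpha chain of the IL-2 receptor and a marker used for the gate, had 33.1 and 36.1 FPM in ILC2 nuclei and at most 1.23 in any other gate, with RNA at 856 and 946 CPM. The other leaders, of which Gm27162 and Gm30557 had the largest ratios of the 5, were Gm27162 (44.5 and 35.6), Gm30557 (38.8 and 35.0) and Trbd1 (54.9 and 41.9), a T cell receptor beta diversity segment whose region touches 4 genes. Gm27162 had 1 and 4 UMIs in ILC2 nuclei, and the other 2 loci had none.

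In Macrophage nuclei a pair of neighbouring chemokine genes led. Ccl6 had 29.2 and 27.3 FPM in the Macrophage gate (PBS and OVA) and 0.169 to 1.64 elsewhere, with RNA at 1562 and 700.1 CPM. Ccl9 had 46.1 and 32.8 in the Macrophage gate and 0.531 to 2.91 elsewhere, with RNA at 423 and 249.5 CPM. Clec4b1, a C-type lectin receptor gene, Fcrlb, an Fc receptor-like gene, and A130077B15Rik had 24.8 to 31.1 FPM in the Macrophage gate with 0 to 7 UMIs of RNA there. The chemokine promoters were thus open and transcribed, and the other leaders were open with almost no RNA.

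In Alveolar epithelium the leading promoter was that of Cldn18, a tight junction protein of alveolar cells and a marker used for the gate. It had 35.2 and 29.5 FPM there (PBS and OVA), and 2 or fewer fragments in any other gate. The RNA of Cldn18 was 721 and 760.4 CPM. Atp6v0a4, a subunit of the proton pump V-ATPase, had 5 regions that summed to 141 and 134 FPM in this gate and to 3.89 or less elsewhere, with RNA at 426 and 402 CPM, and 1 of these regions also touches Tmem213. Sec14l4, a lipid-binding protein gene, had 55.3 and 48.7 FPM with RNA at 56.9 and 43.0 CPM, and Gm29065 had 37.3 and 30.3 with no UMI in any gate.

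In Stroma E030025P04Rik led with 25.9 and 26.4 FPM, against at most 0.819 in the other gates, with 1 and 2 UMIs of RNA. Lrrc17, a leucine-rich repeat protein gene, had 25.1 and 27.2 in Stroma and at most 1.23 elsewhere, and its RNA was 82.4 and 65.8 CPM. Faim2, known as an inhibitor of Fas-mediated death in neurons, had 21.4 and 24.7 in Stroma with 4 UMIs in each library, and Gm38407 had 19.6 and 21.0 with 6 and 11 UMIs. Lrrtm2, a synaptic adhesion protein gene, had 12.2 in both libraries and 0 and 5 UMIs in Stroma. Faim2 lost its restricted region when the gene span was not widened.

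**Figure D2:**
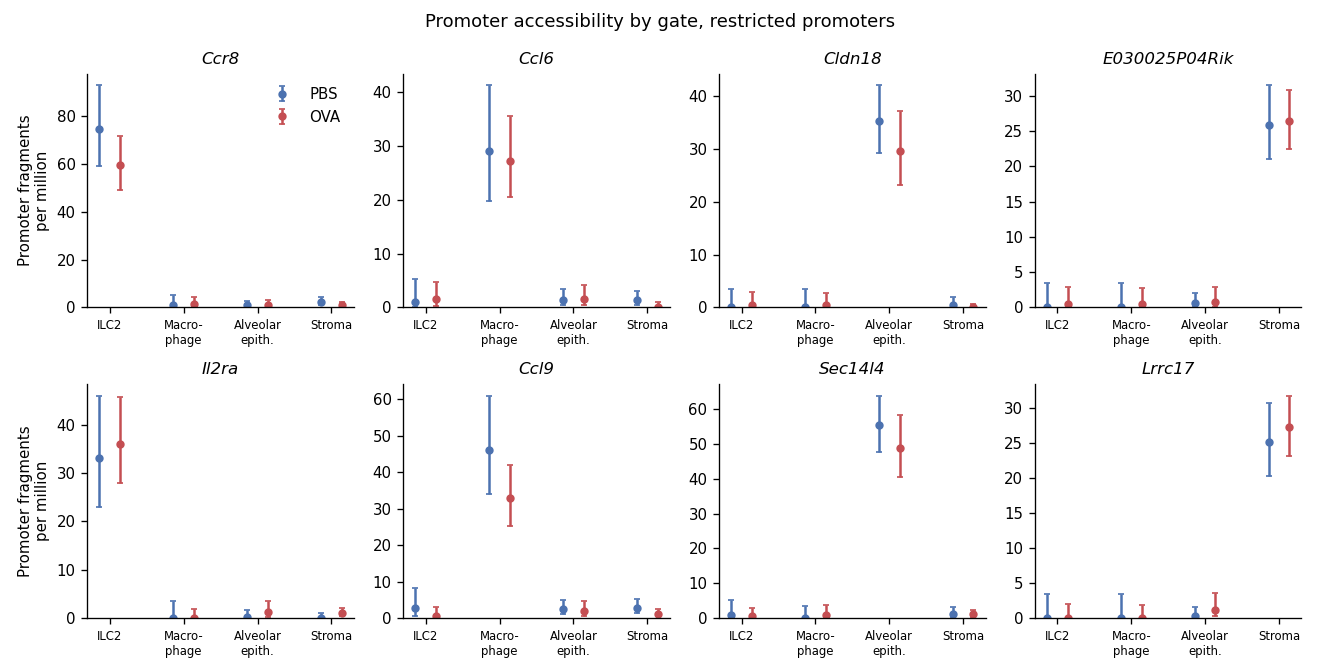
Promoter FPM in each gate for 2 restricted promoters per gate, PBS in blue and OVA in red, with exact 95% Poisson intervals as bars. Each gene is high in 1 gate in both libraries and near 0 in the others, with Ccr8 at 74.7 (PBS) and 59.5 (OVA) in ILC2 nuclei and Cldn18 at 35.2 and 29.5 in Alveolar epithelium.

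Promoters and RNA of the same genes were then compared. Genes with a promoter region were far more often expressed: RNA exceeded 10 CPM in 40.3 to 47.0% of the 18337 genes with a region over the 8 combinations of gate and library, and in 1.17 to 1.91% of the 12027 autosomal genes without one. Within the genes with a region, the share over 10 CPM in PBS ILC2 nuclei was 9.36% in the quartile with the lowest accessibility per kb, 32.9% and 62.2% in the middle quartiles and 72.5% in the highest. In OVA ILC2 nuclei the shares were 6.09%, 27.7%, 57.7% and 69.7%. The step between neighbouring quartiles was smallest at the top in both libraries. A gene could have RNA without a member region, which means only that no peak there met the rule. Sftpc, the surfactant protein C gene that marks alveolar type 2 cells, had no member region, and fragments at its start were not examined. Its RNA was at 16389 and 11641 CPM in Alveolar epithelium, and 217 to 621 CPM in the other gates.

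Restricted RNA was set beside the promoters of the same genes. By the same rule on UMIs, RNA of 351 genes was restricted to ILC2 (3.32% of 10565 genes tested), of 475 to Macrophage (4.5%), of 709 to Alveolar epithelium (6.71%) and of 724 to Stroma (6.85%). Of those with a promoter that could be tested, the promoter was restricted to the same gate in 46 of 329 for ILC2 (14%, exact binomial interval 10.4 to 18.2%), 73 of 440 for Macrophage (16.6%, 13.2 to 20.4%), 179 of 631 for Alveolar epithelium (28.4%, 24.9 to 32.1%) and 174 of 659 for Stroma (26.4%, 23.1 to 29.9%). Over all 17556 genes whose promoter regions in sum could be tested, 1.41% were restricted to ILC2, 2.32% to Macrophage, 3.57% to Alveolar epithelium and 3.2% to Stroma. Among genes with enough UMIs for a call whose RNA was not restricted to the gate (9599, 9488, 9297 and 9269), the promoter was restricted to it in 0.156%, 0.232%, 0.602% and 0.507%. Genes with too few UMIs, which include most genes with a restricted promoter, are left out of these last shares. The last shares are thus lower than they would be over all genes without restricted RNA. Among genes with restricted RNA, without those used as gate markers, the shares were 11.8%, 16.1%, 27.8% and 25.3%. With the gates thinned to equal depth, an alternative chosen after seeing the data, the shares were 13.3%, 15.6%, 24.4% and 25.9%.

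These genes were chosen by an RNA ratio of 2-fold or more, so the size of their RNA ratios is set by that choice and is not compared with the promoters. The median log2 ratio of their promoters over the highest other gate was 0.28 in ILC2, 0.10 in Macrophage, 0.52 in Alveolar epithelium and 0.48 in Stroma of the PBS library, and 0.23, 0.11, 0.53 and 0.64 in the OVA library. The promoter was highest in the gate of the RNA in 60.8%, 48.9%, 68.8% and 71.9% of these genes, and it was restricted to another gate in 1, 3, 5 and 4 genes. In the other direction, RNA was restricted to the same gate in 46 of 247 genes with a promoter restricted to ILC2 (18.6%), 73 of 408 for Macrophage (17.9%), 179 of 626 for Alveolar epithelium (28.6%) and 174 of 561 for Stroma (31%). Only 61, 95, 235 and 221 of these genes had enough UMIs for a call, and a gene mostly reaches that number through the gate where its RNA is high. Most genes with a restricted promoter thus had too few UMIs to be called.

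**Figure D3:**
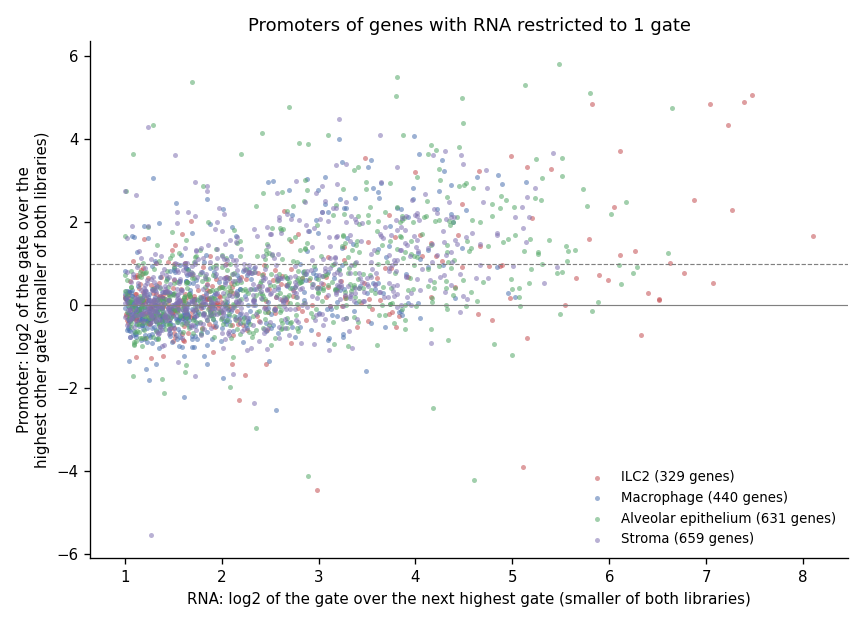
Each point is 1 of the genes with RNA restricted to a gate (329 ILC2, 440 Macrophage, 631 Alveolar epithelium, 659 Stroma), with the log2 ratio of its RNA over the next highest gate on the x axis and the log2 ratio of its promoter over the highest other gate on the y axis, each the smaller value of both libraries. The dashed line is a promoter ratio of 2-fold (log2 of 1), most points lie below it, and all lie at 1 or more on the x axis because the genes were chosen by that ratio.

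Across all genes with enough reads, the contrast of a promoter between gates followed that of the RNA in part. The Spearman correlation across genes was 0.41 (PBS, 3623 genes) and 0.42 (OVA, 6624 genes) for ILC2 over Macrophage, 0.47 and 0.51 (7523 and 9000 genes) for ILC2 over Alveolar epithelium, and 0.43 and 0.46 (9377 and 10807 genes) for Alveolar epithelium over Stroma. These are descriptions, since genes of 1 library are not independent replicates and share its depth. The spread, counting error included, was wider in RNA, with standard deviations of 1.67 to 2.14 on the log2 scale, than in promoters, with 0.78 to 1.09.

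Some genes showed strongly restricted RNA over promoters that were open elsewhere. In ILC2 nuclei Ltb, the lymphotoxin beta gene, had RNA at 387 and 302 CPM (PBS and OVA) and at most 4.24 CPM in the other gates. Its promoter had 39.7 and 39.8 FPM in ILC2 and 32.0 and 35.9 in Macrophage nuclei. Ret, a receptor tyrosine kinase, had RNA at 463 and 425 CPM in ILC2 nuclei with a promoter at 40.7 and 37.2, and at 33.2 and 29.9 in Alveolar epithelium. Il17rb, the receptor of IL-25, had RNA at 410.2 and 407 CPM in ILC2 nuclei while its promoter, whose region touches 2 genes, was higher in Alveolar epithelium (43.7 and 38.5) than in ILC2 (28.4 and 23.4). Ret and Il17rb are gate markers.

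The same held in the other gates. Tmcc3, a coiled-coil protein gene, had RNA at 579 and 688 CPM in Macrophage nuclei and at most 39.9 CPM elsewhere, while its 8 regions summed to 85.6 and 88.4 FPM there and to 73.8 and 105 in ILC2 nuclei. In Alveolar epithelium Clic5, a chloride channel family gene, had RNA at 790.2 and 783 CPM, with a promoter at 14.9 and 11.5 there and at 13.2 and 13.3 in ILC2 nuclei. In Stroma Sgcd, a sarcoglycan of the muscle membrane, had RNA at 386 and 447 CPM, with a promoter at 8.72 and 8.79 there and at 7.57 and 9.83 in Alveolar epithelium. The promoters of Clic5 and Sgcd were shallow as well as even between these gates. Inhba and Rassf4 (Macrophage), Srcin1 and Tspan8 (Alveolar epithelium), and Fat3 and Cacnb4 (Stroma) were the other genes of this kind by rule.

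Gene lists of known function place these patterns. Genes that served as gate markers, such as Gata3, Il1rl1, Csf1r, Sftpb and Col1a1, are high in RNA by the construction of the gate. The counts are per gene, with its regions summed, and over all 17556 genes tested 10.5% were restricted. All 26 housekeeping genes had a promoter region and none was restricted. Eef1a1, a translation elongation factor with the most promoter fragments among the printed sequences, had 134, 121, 121 and 129 FPM in PBS nuclei of ILC2, Macrophage, Alveolar epithelium and Stroma, and 116, 116, 116 and 127 in OVA nuclei. The RNA of B2m was the only one of this list restricted to a gate (ILC2). The 22 immediate early genes and the 18 mitosis genes likewise all had a region and none restricted.

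Of the ILC2 regulators and receptors, 23 of 25 autosomal genes had a region, 22 could be tested and 8 were restricted, all to ILC2. These were Rora, Bcl11b, Il1rl1, Il7r, Icos, Il2ra, Il9r and Kit. RNA was restricted to ILC2 in 14 of 21. Rora, a nuclear receptor needed for ILC2 development, had 40 regions along its span of starts that summed to 525 and 549 FPM in ILC2 nuclei and to 210.1 and 214 in Stroma, the next gate. Il1rl1, which encodes the IL-33 receptor ST2 used for the sort, had 22.7 and 22.3 in ILC2 nuclei and 0.793 or less elsewhere, with RNA at 1629 and 1449 CPM. Kit, a receptor that mast cells also carry, had 80.4 and 74.3 in ILC2 nuclei and 23.6 and 24.6 in Alveolar epithelium. Gfi1 and Klrg1 had no region.

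Gata3, the defining factor of ILC2s, was not restricted when its 3 regions were summed. They held 93.7 and 81.7 FPM in ILC2 nuclei (PBS and OVA) and 47.0 to 56.1 in the other gates, a ratio over the next gate of 1.84 (1.43 to 2.35) and 1.46 (1.20 to 1.77). RNA of Gata3 was 1488 and 1334 CPM in ILC2 nuclei and 11 CPM or less elsewhere. The sum mixed unlike regions. The region at chr2:9878108-9878867, which holds the start window printed above, had 42.6 and 38.2 FPM in ILC2 nuclei and 4.55 to 13.9 elsewhere, and on its own it was restricted to ILC2. Its upstream neighbour on the gene's strand at chr2:9879260-9880156 had 44.5 and 35.0 in ILC2 nuclei and 34.6 to 39.5 elsewhere, and was even. The third, chr2:9876830-9877794, was shallow, at 1.88 to 8.49.

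Other regulators had RNA restricted to ILC2 over promoters that were not. Lmo4, a LIM-domain protein gene, had RNA at 1447 and 1389.5 CPM in ILC2 nuclei with promoters at 142 and 120.5 there and 73.2 to 118 elsewhere. Ets1, a lymphoid transcription factor, had RNA at 949 and 736 CPM in ILC2 nuclei, while its 9 regions summed to 82.3 and 126 there and to 218 and 217 in Stroma. Nr3c1, the glucocorticoid receptor gene, had RNA at 1776 and 2827 CPM in ILC2 nuclei and 120.2 to 324 CPM elsewhere, with promoters at 122 and 120.5 in ILC2 nuclei and 85.6 to 113 elsewhere. Its RNA was restricted to ILC2, and its promoter was within 1.5-fold over the gates in both libraries.

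Type 2 effector genes had the opposite order in part, with open promoters and little RNA. Of 13 such genes 11 had a region and 5 were restricted, all to ILC2: Il4, Il5, Il13, Calca and Tnfsf11. Il5 had 20.8 and 22.8 FPM in ILC2 nuclei and 1.01 or less elsewhere, with 0 and 7 UMIs. Il13 had 23.6 and 14.9 in ILC2 nuclei with 5 and 49 UMIs, and Il4 had 36.9 and 19.6 with 7 and 19 UMIs. Calca, the calcitonin gene-related peptide gene and a gate marker, had 28.4 and 21.8 with RNA at 5069 and 5743 CPM. In the PBS library the promoter of Il4 was the more open of Il4 and Calca, and the RNA of Calca was the higher. Il9 and Il10 had no region.

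Of 30 macrophage genes all had a region, 26 could be tested, 13 were restricted to Macrophage and 1 to ILC2, while RNA was restricted to Macrophage in 18 of 25. Csf1r, the receptor of the macrophage growth factor CSF1, had 23.5 and 24.8 FPM in Macrophage nuclei and 3.50 or less elsewhere. Tyrobp, an adaptor of myeloid receptors, had 48.0 and 49 there and 6.08 or less elsewhere. Cx3cr1, the fractalkine receptor, was the gene restricted to ILC2, with 22.7 and 22.3 in ILC2 nuclei against 7.53 and 7.07 in Macrophage nuclei, but its region touches 2 genes and its RNA was restricted to no gate, at 50.8 to 101 CPM over the 8 combinations of gate and library. Csf2ra, the receptor chain of a macrophage growth factor, repeated the pattern of Gata3: the region at chr19:61228195-61228964 had 34.8 and 31.3 in Macrophage nuclei and 3.55 to 9.90 elsewhere, and the region at chr19:61226841-61227641 had 59.8 to 83.9 in every gate.

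Of 32 alveolar epithelial genes 28 had a region and 15 were restricted to Alveolar epithelium, against 29 of 32 in RNA. Sftpb, the surfactant protein B gene, had 50.1 and 58.2 FPM there and 3.78 or less elsewhere. Slc34a2, a phosphate transporter of type 2 cells, had 29.1 and 22.9 there and 2.70 or less elsewhere. The growth factor effector Etv5 had RNA at 295 and 244 CPM in Alveolar epithelium and 18.9 CPM or less elsewhere over a promoter at 103 to 126 FPM in every gate. Nkx2-1, Sftpa1, Sftpc and Lamp3 had no region.

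Of 30 stromal genes 26 had a region and 18 were restricted to Stroma, the highest share of any list, against 27 of 27 tested in RNA. Eln, the elastin gene, had 82.7 and 88.1 FPM in Stroma and 16.6 or less elsewhere, with RNA at 4952 and 4745 CPM. Tcf21, a fibroblast transcription factor, had 20.4 and 18.4 in Stroma and 2.87 or less elsewhere. Tbx4, a T-box factor of lung mesenchyme, had 2 restricted regions, with 25.6 and 23.2 FPM at chr11:85885710-85886653 and 10.0 and 9.97 at chr11:85896157-85896971. Col1a1, a main fibrillar collagen, was not restricted, with 57.6 and 61.9 in Stroma against 32.0 and 35.2 in Alveolar epithelium, although its RNA was 1626 and 1199.9 CPM in Stroma and 117 CPM or less elsewhere. Tbx5, Nkx2-3, Dcn and Lum had no region.

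In the remaining lists between 0 and 2 promoters were restricted. Of 23 glucocorticoid axis genes 1 was restricted, Pdk4 (pyruvate dehydrogenase kinase 4) to Stroma, with 54.4 and 50.9 FPM and 14 and 24 UMIs. Of 26 genes of the mitogen-activated protein kinase (MAPK) pathway 1 was restricted, the kinase Map2k6 to ILC2, with 56.8 and 60.5 against 20.7 and 19.7 in Macrophage nuclei. Of 28 genes of other organs only 7 had a region, and 2 of these were restricted. Tg, the thyroglobulin gene, had 19 regions along its span that were restricted to Macrophage in sum (202 and 224) with 2 and 10 UMIs there. Rbfox3, a neuronal splicing factor gene, was restricted to Stroma at 5.81 and 6.93 FPM with 1 and 3 UMIs there. Actn3, a muscle actinin gene whose region touches 2 genes, had 49.9 to 62.4 in every gate with 0 to 6 UMIs.

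The OVA and PBS libraries were then compared region by region within each gate. The promoter regions were close to equal. Of regions with at least 50 fragments over both libraries, 10764 were compared in ILC2, 10910 in Macrophage, 14938 in Alveolar epithelium and 17254 in Stroma. The median log2 ratio of OVA over PBS was -0.04 in ILC2 (-0.05 to -0.03), -0.04 in Macrophage (-0.04 to -0.03), 0.00 in Alveolar epithelium (0.00 to 0.01) and 0.01 in Stroma (0.00 to 0.01), with standard deviations of 0.28 to 0.32 that include counting error. The intervals in brackets are rank-based 95% intervals of the median across regions. They treat the regions as independent, and with no replicate library they do not show a shift between the groups. The other shared regions had medians of 0.04, 0.03, -0.01 and 0.11. In Stroma the other regions were thus higher in the OVA library than the promoter regions on the same scale.

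Promoters were also counted that differed 2-fold or more with a counting interval that left out equality. In ILC2 nuclei 38 promoter regions were higher and 13 lower in the OVA library (0.474%), where 0.633% of all shared regions were higher and 0.183% lower. In Macrophage nuclei 36 were higher and 20 lower (0.513%), with 0.65% and 0.22% of all shared regions. In Alveolar epithelium 28 were higher and 50 lower (0.522%), with 0.36% and 0.654% of all shared regions. In Stroma 93 were higher and 35 lower (0.742%), with 1.27% and 0.238% of all shared regions. These counts depended on the setting. With at least 100 fragments over both libraries they were 5, 4, 13 and 19 in the 4 gates, with transposition counts as deposited 313, 315, 306 and 485, with the joint filter on UMIs and peak counts 103 in ILC2 and 195 in Stroma, and with doublets kept 222 in Stroma. Which single regions differ cannot be read from them.

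RNA of the same nuclei was compared by the same rule. The median log2 RNA ratio over the genes compared was 0.18 in ILC2, 0.22 in Macrophage, 0.06 in Alveolar epithelium and 0.03 in Stroma. Of 1332 genes with at least 100 UMIs in ILC2 nuclei 75 were 2-fold higher in the OVA library (5.63%) and 8 lower (0.601%). In Macrophage nuclei 59 of 1984 were higher (2.97%) and 69 lower (3.48%), in Alveolar epithelium 67 of 5015 (1.34%) and 26 (0.518%), and in Stroma 39 of 5897 (0.661%) and 34 (0.577%). The median mitochondrial share of UMIs was higher in PBS than in OVA nuclei of each gate (42.3% and 30.5% in ILC2, 50.6% and 40% in Macrophage, 36.4% and 23.5% in Alveolar epithelium, 30.9% and 19.7% in Stroma). The 10 endothelial markers summed to 190.1 CPM in PBS and 726 CPM in OVA nuclei of Alveolar epithelium, none of them at 0, to 223 and 365 CPM in ILC2 (5 and 1 at 0), 107 and 134 CPM in Macrophage (4 and 2 at 0), and 78.1 and 58.3 CPM in Stroma (0 and 1 at 0). Their part in the RNA differences was not tested. Of the higher genes with a comparable promoter (68, 52, 53 and 36 genes) none had a promoter that differed by this rule. Over all promoter regions compared, 0.474%, 0.513%, 0.522% and 0.742% differed, so that none among so few genes is close to these shares. The median log2 ratio of the promoters of the higher genes was -0.06, 0.00, 0.05 and -0.02. Of the lower genes (7, 64, 19 and 25) none in the first 3 gates and 2 in Stroma had a promoter that differed. The Spearman correlation across genes of the OVA over PBS ratios of promoter and RNA was 0.02, 0.05, 0.04 and 0.01 over 1250, 1861, 4706 and 5589 genes.

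In ILC2 nuclei, which had the most genes with higher RNA in the OVA library, promoter and RNA of single genes were compared. Most genes in the following, Jun among them, belong to a list that was drawn up because their RNA stood out in these libraries. Their RNA ratios are thus a description and no independent evidence. Nr4a3 comes from the immediate early list, which also holds Jun. Homer1, a scaffold protein gene known from synapses, had 86.1 promoter FPM in PBS and 70.1 in OVA ILC2 nuclei, a log2 ratio of -0.30 (-0.69 to 0.10), while its RNA was 152 and 686 CPM, a log2 ratio of 2.17. In Macrophage nuclei the RNA ratio of Homer1 was 1.90 over a promoter ratio of -0.20, and in Stroma 1.18 over -0.05. Mpp7, a cell polarity scaffold gene, had promoter values of 97.4 and 87.6 (log2 -0.15, interval -0.52 to 0.22) and RNA at 445 and 1529.8 CPM. Arih1, a ubiquitin ligase gene, had promoter values of 151 and 153 (0.01, interval -0.27 to 0.30) and RNA at 856 and 2769 CPM.

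The interval of the promoter excluded a 2-fold difference for Homer1, Mpp7 and Arih1, and for Akap12, Man1b1, Nr4a3 and Bcl2 as well. Akap12, a kinase anchor protein gene, had a promoter ratio of 0.25 (-0.18 to 0.70) over an RNA ratio of 2.15. Nr4a3, an orphan nuclear receptor induced by stimulation, had 0.34 (-0.09 to 0.79) over 1.39. Bcl2, an inhibitor of apoptosis, had a lower promoter value in the OVA library at -0.48 (-0.88 to -0.07) over a higher RNA value at 1.26. The immediate early gene Jun was lower in RNA at -1.38 with a promoter ratio of -0.30 (-0.58 to -0.02). The point values of promoter and RNA had opposite signs for Homer1, Mpp7, Man1b1 and Bcl2, and the same sign for Akap12, Arih1, Nr4a3 and Jun.

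**Figure D4:**
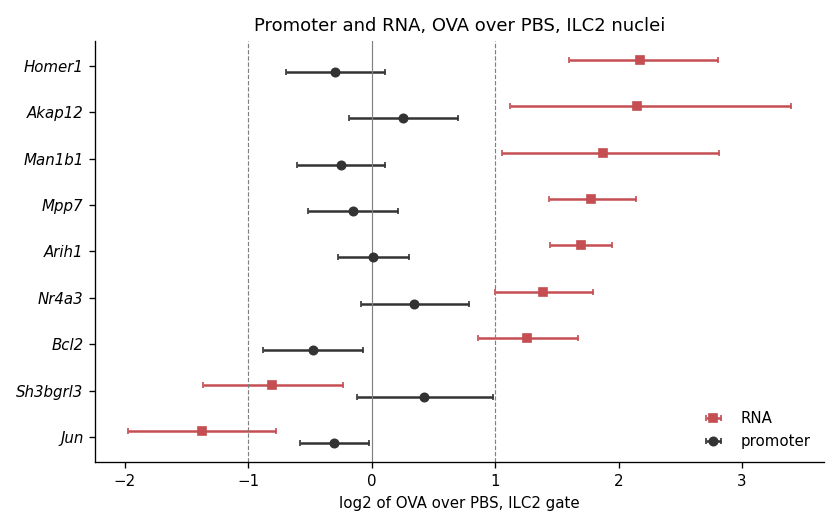
log2 ratio of OVA over PBS in ILC2 nuclei for the promoter (black circles) and the RNA (red squares) of 9 genes whose RNA stood out in these libraries, with exact 95% conditional binomial intervals that cover counting error only. The promoter ratios lie between -0.48 (Bcl2) and 0.42 (Sh3bgrl3) and the RNA ratios between -1.38 (Jun) and 2.17 (Homer1); dashed lines mark 2-fold.

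The promoters of the listed ILC2 genes were close between the libraries. In ILC2 nuclei the median log2 ratio was -0.08 over 21 regulators and receptors, -0.18 over 9 type 2 effector genes, -0.03 over 21 glucocorticoid axis genes and -0.01 over 25 MAPK genes, beside -0.04 over all promoter regions. Gata3 had a promoter ratio of -0.20 (-0.57 to 0.18) and an RNA ratio of -0.16. Nr3c1 had a promoter ratio of -0.02 (-0.34 to 0.30), with an RNA ratio of 0.67 (0.49 to 0.85). Il13 had fewer promoter FPM in the OVA library (23.6 and 14.9, log2 -0.67, interval -1.50 to 0.17). Il4 had 36.9 and 19.6 (-0.91, interval -1.60 to -0.22). Raw UMIs, not scaled to depth, were 5 and 49 for Il13 and 7 and 19 for Il4. The ILC2 gate held 170644 nuclear UMIs for PBS and 520315 for OVA. The raw counts of both genes thus do not give the size of an RNA difference. For Il4 they do not show more RNA in OVA nuclei. The only listed promoter past 2-fold in any gate was that of Mt2, a metallothionein gene, in ILC2 nuclei, with 28 and 24 fragments (log2 -1.06, interval -1.91 to -0.22) and 0 and 1 UMIs.

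The named promoters that differed between libraries had RNA that mostly did not follow. No promoter past 2-fold in ILC2 nuclei belonged to a gene with 100 UMIs. In Macrophage nuclei Emb, a cell adhesion gene, went from 10.4 to 22.2 FPM (log2 1.10) over an RNA ratio of 0.13, Il17ra, an IL-17 receptor chain, from 12.2 to 25.8 (1.07) over -0.10, and Cox7c, a subunit of cytochrome c oxidase, from 16 to 33.8 (1.08) over -0.95. In Alveolar epithelium Lims2 had 11.1 and 22.5 (1.03, RNA 0.45) and Edn3, the endothelin 3 gene, 12.2 and 5.73 (-1.09, RNA 0.04). In Stroma Dock2 (13.5 and 5.41, log2 -1.32) and Laptm5 (8.99 and 2.70, log2 -1.73), both genes of blood cells, were lower in promoter and in RNA (-1.65 and -1.23), and Srgn, a proteoglycan of blood cell granules, had 20.4 and 9.80 (-1.05) over an RNA ratio of -0.09. In the Stroma gate the 12 macrophage markers summed to 347 CPM (PBS, 1 marker at 0) and 386 CPM (OVA, 2 at 0), the monocyte markers to 73.9 and 29.0 CPM and the neutrophil markers to 23.8 and 11.5 CPM, and their part in the result was not tested. Scn7a, a sodium channel gene, had 2.91 and 6.76 in Stroma, but its called peak was 0.866 kb long in the PBS and 2.095 kb in the OVA library, and per kb the ratio was -0.06.

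The sequence at the gene starts differed between promoter regions and starts in no shared peak, and between restricted regions and those that were not restricted. Of 31396 RefSeq windows of 300 bases on the autosomes, 14183 had their start in a promoter region and 16156 in no shared peak. The median GC content was 61.7% and 47.3%, and the median ratio of observed over expected CpG was 0.76 and 0.21. High CpG content (an observed over expected ratio of 0.6 or more and a GC content of 55% or more) was found in 62.2% of the windows in promoter regions and in 4.74% of those in no shared peak. Among windows in promoter regions it was found in 67.3% of 12665 in regions that were tested and not restricted, in 35.5% of 307 restricted to Stroma, 30.7% of 436 restricted to Alveolar epithelium, 14.2% of 141 restricted to ILC2 and 2.16% of 232 restricted to Macrophage. Of the windows printed above, Gata3, Homer1 and Eef1a1 had ratios of 0.66, 0.87 and 0.70, and Ccr8, Ccl6, Cldn18 and E030025P04Rik had 0.09, 0.15, 0.43 and 0.22.

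Regions with low CpG content were restricted more often, and most of the gap lay at low depth. With high CpG content 227 of 6857 regions (3.31%) were restricted, and with low content 762 of 4093 (18.6%), but the former were deeper, with a median of 432 fragments against 136. At 20 to under 50 fragments the shares were 17% and 39.3%, at 50 to under 100 fragments 18.7% and 31.5%, at 100 to under 200 fragments 12.1% and 15.6%, and at 200 to under 400 fragments 2.8% and 3.27%. Within a depth band the ratio of the shares was thus smaller than over all regions. Depth sums the same 4 gates that define restriction, so it depends in part on the call itself. The bands therefore cannot show how much of the gap goes with depth alone.

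Short motifs of lineage factors were counted in the same windows on both strands. The motifs were ETS (CCGGAAGT), SP/KLF (GGGCGGG), NFY (CCAAT), NRF1 (GCATGCGC), CRE/ATF (TGACGTCA), AP-1 (TGANTCA), YY1 (AAGATGGC), the TATA box (TATAAA), the GATA motif (AGATAA), PU.1 (GAGGAAGT), RUNX (TGTGGTT), C/EBP (TTGCNNAA), FOX (TGTTTAC), GRE (ACANNNTGT), NKX2 (CCACTTGA) and TEAD (GGAATGT). Over all 31396 windows the shares that held them were, in this order, 3.95%, 25.8%, 37.3%, 2.7%, 1.83%, 7.84%, 2.75%, 13.6%, 11.2%, 3.25%, 5.32%, 10.9%, 3.71%, 6.9%, 0.71% and 3.89%. A match is a description of the letters and not a bound site.

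Motif shares differed between the gates that the promoters were restricted to. PU.1, a motif of the myeloid factor of that name, was in 14.7% of the windows restricted to Macrophage and in 1.15 to 4.26% of those of the other gates, and C/EBP was in 19.8% and in 8.72 to 13%. RUNX was in 16.3% of the windows restricted to ILC2, in 10.3% of those of Macrophage and in 4.36% and 3.91% of those of Alveolar epithelium and Stroma. GATA was in 17.7% of the ILC2 windows and in 5.86 to 9.91% of those of the other gates, but also in 16.1% of the windows in no shared peak, whose GC content is low. TEAD was in 6.42% and 5.54% of the windows of Alveolar epithelium and Stroma and in 0.709% and 1.29% of those of ILC2 and Macrophage. The windows of regions that were not restricted held ETS in 8.43% and SP/KLF in 50.9%, against 1.29 to 2.29% and 9.05 to 41.1% in the restricted ones. C/EBP was also in 13.4% and TEAD in 4.92% of the windows in no shared peak. Other motifs did not single out 1 gate. AP-1 was in 14.2% (ILC2), 17.7% (Macrophage), 9.86% (Alveolar epithelium) and 7.17% (Stroma) of the windows. In the same order FOX was in 4.96%, 2.16%, 3.44% and 5.21%. NKX2 was in 2.13% of the ILC2 and 1.83% of the Alveolar epithelium windows. NFY, NRF1, CRE/ATF, YY1, TATA and GRE are not given by gate. These shares were not tested, and the ILC2 share of GATA stands for 141 windows.

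**Figure D5:**
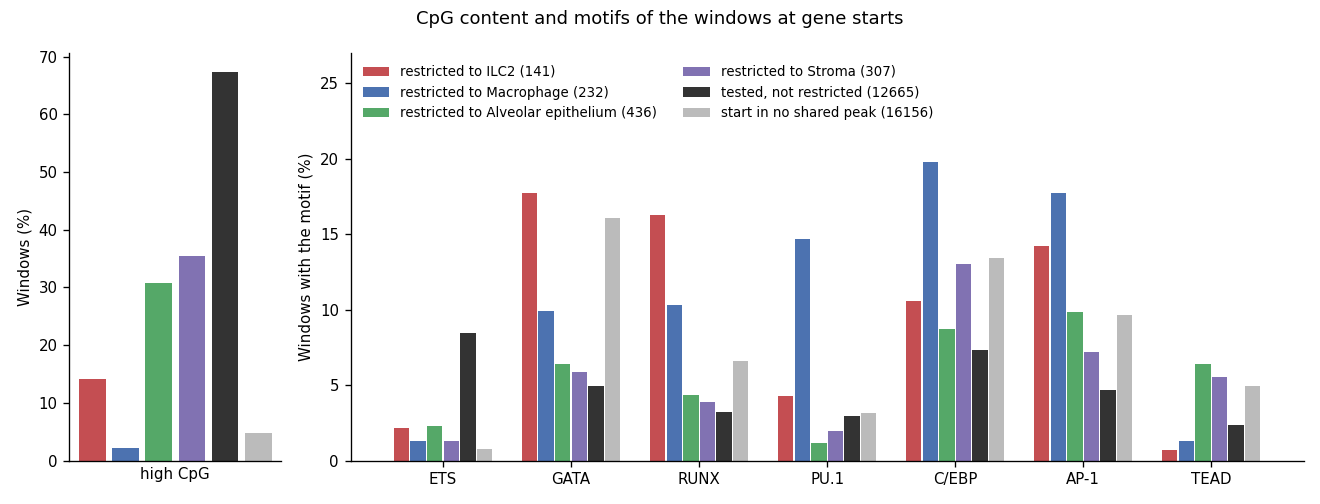
Share of windows at gene starts with high CpG content (left) and with 7 motifs (right), by the gate to which the region at the start was restricted (141 ILC2, 232 Macrophage, 436 Alveolar epithelium, 307 Stroma), for regions tested and not restricted (12665) and for starts in no shared peak (16156). PU.1 is highest in windows of Macrophage (14.7%), GATA and RUNX in those of ILC2 (17.7% and 16.3%) and ETS in those not restricted (8.43%).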

How the data were processed

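The 10x Genomics Multiome kit had given RNA and chromatin reads from the same nuclei, in 1 PBS and 1 OVA library. The authors aligned the reads with Cell Ranger ARC (version 2.0.1, build mm10, per the submitters' processing notes) and deposited whole-number counts of UMIs per gene and of transposition events per peak, with peaks called in each library on its own. In the deposited peak counts 91.3% (PBS) and 91.2% (OVA) of the entries were even and 80.2% and 80.6% were exactly 2, so an entry was halved and rounded up to give fragments. The planned tests on the counts themselves became an alternative.

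The PBS library held 8019 barcodes and the OVA library 5960. Nuclei entered with 200 genes or more and a mitochondrial share of UMIs up to 60%, and doublets were called from simulated doublets (2 per nucleus, 30 neighbours, 30 principal components, 3000 variable genes, an expected 0.8% per 1000 barcodes) and removed, 293 in PBS and 250 in OVA (6.41% and 4.77%). This left 4279 and 4996 nuclei. A nucleus entered 1 of 13 gates with 2 or more distinct markers and 2 more than for any other gate, and 43.0% and 35.5% of kept nuclei entered none. Overlapping shared peaks were joined to regions, and counts of a region include all its shared peaks (165 regions hold a member peak in 1 library only). Values of a gene sum its promoter regions. RNA is in CPM of nuclear genes.

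With 1 library per group there was no test. Intervals are exact (Poisson, binomial, or conditional binomial for ratios, at 95%). Those of the median OVA over PBS ratios are rank-based across regions. A ratio of OVA over PBS was computed with 50 or more fragments or 100 or more UMIs over both libraries, and a restricted call with 20 or more in each. Named genes were, per gate, the 5 restricted promoters with the largest ratio (the smaller of both libraries, with 100 or more fragments), the 3 genes with the largest restricted RNA ratio and a promoter ratio under 1.25, the 3 highest and 3 lowest OVA over PBS promoters with RNA, and examples from 12 gene lists. Many list examples, the single regions and the 2 further sequences were chosen after their values were seen. The members and lists were chosen with earlier results of these data known. The planned features of the central part of each region needed a genome and were replaced by RefSeq windows of 300 bases. Starts are those of GENCODE M21. The scripts were tested on simulated data. Python 3.11.15, numpy 2.4.6, scipy 1.17.1, pandas 2.3.3 and matplotlib 3.10.9 were used.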

Additional observations from a re-analysis of the deposited data

Results flagged for a closer look

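The promoter of Matn4, a matrix protein gene, differed between the libraries in opposite directions in a pair of gates. In Alveolar epithelium it had 62.6 fragments per 1000000 in shared regions (FPM) in PBS and 13.9 in OVA nuclei, a log2 ratio of -2.17 (-2.74 to -1.64). In Stroma it had 4.23 and 14.4, a log2 ratio of 1.76 (0.98 to 2.64). RNA of Matn4 was close between the libraries in Alveolar epithelium (231 and 235 CPM, log2 0.02) and in Stroma (22.1 and 26.0 CPM, log2 0.23). The difference between the gates was not tested, each group being 1 library. The called peak was 0.794 kb long in the PBS and 0.433 kb in the OVA library. Peaks were joined at an overlap of 1 bp or more, so the libraries may count partly different DNA here. The same region also counts for Rbpjl, whose log2 ratio in Alveolar epithelium was -1.34. That difference was lost when peaks had to overlap by 50% of each, as given below. Whether the values of Matn4 reflect a change of the same stretch of DNA was not tested.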

How the results depend on the processing

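No paired analysis was possible because there was a single library of PBS and a single one of OVA fetuses. Of 263 values of the main results under the alternatives 193 stayed within the limits set for them, 68 moved and 2 changed sign, and of 420 values of named genes 371 stayed, 44 fell below the call and 5 changed sign. The alternatives (transposition counts as deposited, only regions within 1 kb of an annotated start, and gates thinned to equal depth) were chosen after seeing the data. The use of whole regions for GC and CpG content was not run, since it needs a genome. The cause of the shifts was not tested, apart from the smaller number of regions or nuclei that some settings leave.

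The number of promoter regions 2-fold apart between OVA and PBS depended most on the setting. With 100 fragments as the minimum it was 5, 4, 13 and 19 in ILC2, Macrophage, Alveolar epithelium and Stroma. With nuclei with a count in place of fragments it was 31, 31, 36 and 84, and with transposition counts as deposited it was 313, 315, 306 and 485. It was 222 in Stroma with doublets kept, 103 in ILC2 and 195 in Stroma with the joint filter on UMIs and peak counts, and 80 in Stroma within 1 kb of a start.

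The number of restricted promoter regions was 274, 484, 923 and 804 in the same order with 50 fragments in each library, and 339, 706, 838 and 722 within 1 kb of a start. With the joint filter it was 334 in ILC2 and 889 in Stroma, and with equal depth 875 in Alveolar epithelium and 543 in Stroma. Genes with restricted RNA at equal depth numbered 351 in Alveolar epithelium and 365 in Stroma. The share of genes with restricted RNA whose promoter was restricted too was 7.82% in ILC2 with the joint filter and 24.4% in Alveolar epithelium at equal depth.

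The median log2 ratio of OVA over PBS stayed near 0 in every setting. In Stroma it was -0.0053 with 100 fragments and -0.0032 within 1 kb of a start (both changes of sign), 0.0103 with gates of 3 markers, 0.0131 with doublets kept, 0.0166 with the joint filter and 0.0011 with nuclei with a count. In ILC2 it was -0.0216 with doublets kept, -0.0236 with the joint filter, -0.0547 with 100 fragments and -0.0279 with counts as deposited. In Macrophage it was -0.0233 with the joint filter, -0.0478 with 100 fragments and -0.0273 with counts as deposited. Scaled to the fragments in promoter regions it was -0.0051, -0.0014, -0.0078 and 0.0285.

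The Spearman correlation of OVA over PBS ratios in Stroma was 0.046 with doublets kept and 0.0579 at equal depth. That of ILC2 over Macrophage (mean of both libraries) was 0.400 with doublets kept, 0.389 with the joint filter, 0.401 with the gene span not widened, 0.394 within 1 kb of a start and 0.423 at equal depth. That of Alveolar epithelium over Stroma was 0.430 with the joint filter, 0.428 within 1 kb and 0.417 at equal depth. With genes whose regions touch no other gene, the values were 0.443, 0.493 and, for ILC2 over Alveolar epithelium, 0.524. The member share of fragments was 57.68% (PBS) and 58.32% (OVA) over all barcodes, 54.26% and 54.42% with the span not widened, 57.99% and 58.24% with peaks overlapping by 50% of each, and 58.28% and 58.48% with counts as deposited. Among named genes, the log2 ratio over the next gate was -1.70 for Tmem213 and -1.84 for Faim2 with the span not widened. The OVA over PBS log2 ratio of Rbpjl in Alveolar epithelium was 0.035 with the span not widened and 0.034 with the stricter overlap, and that of Scn7a in Stroma was -0.057 per kb.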

Other observations

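Some genes had starts of their own, by GENCODE M21, in regions restricted to different gates. Of 1318 genes with 2 or more tested regions that hold such a start, 67 had 2 or more restricted regions, and in 32 of these (47.8%) the regions were restricted to different gates. Over all promoter regions 676 were restricted to ILC2, 1385 to Macrophage, 1464 to Alveolar epithelium and 1386 to Stroma, so restricted regions of unrelated genes often differ in gate too. That background share was not computed, and 47.8% cannot be read as a high share. Smarca2, a subunit of the SWI/SNF chromatin remodelling complex, had a region restricted to Stroma at chr19:26715912-26716941 (8.46 FPM in PBS and 7.95 in OVA Stroma nuclei) and a region restricted to Alveolar epithelium at chr19:26745116-26746119 (24.8 and 26.6). A further region of Smarca2 at chr19:26604542-26605436 had 53.0 to 86.1 FPM in every gate. Sema4d, a semaphorin of immune cells, had a region restricted to Macrophage at chr13:51734317-51735215 (26.3 in both libraries) and a region restricted to ILC2 at chr13:51747853-51748743 (32.2 and 36.1). These genes were picked after their values were seen.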
